A study of Homo sapiens with 8 samples.

Results

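The genes described here are 31 genes of cholesterol synthesis and of the control of lipid synthesis by the sterol regulatory element-binding proteins (SREBPs), chosen by symbol from the 37441 genes of the deposited count table. They were divided into a sterol branch of 24 genes, which runs from acetyl-CoA to cholesterol and includes the regulators, and a fatty acid branch of 7 genes (ACACA, ACLY, FASN, SCD, FADS1, FADS2 and ELOVL6). The study sequenced RNA of the human non-small cell lung cancer cell lines NCI-H1581 and NCI-H1703, each as a sensitive variant and as a variant made resistant to CPL304110, an inhibitor of fibroblast growth factor receptors (FGFR). There were 2 replicate libraries for each of the 4 variants, 8 libraries in all. The comparisons ask how expression of these genes differed after acquired resistance, and whether the cell lines differed in it.

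The resistant variants NCI-H1581R and NCI-H1703R were obtained by growing each line in CPL304110 raised from 50 nM to 2.5 µM (NCI-H1581R) or 5 µM (NCI-H1703R) over 4 to 6 months. NCI-H1581 was kept in DMEM/F12 and NCI-H1703 in RPMI 1640, both with 10% fetal bovine serum, so that cell line and medium cannot be told apart. All variants were harvested 24 h after a change of medium. Whether that medium held the inhibitor for the resistant variants is not given in the sources used here. Each resistant variant was 1 selected culture, and its replicates were repeat seedings of it, so the p-values measure the spread between seedings and not between independent selections. In bulk RNA, fewer cells of a kind and less RNA per cell cannot be told apart.

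Cells make cholesterol from acetyl-CoA through mevalonate, farnesyl diphosphate, squalene and lanosterol, and they make fatty acids from the same precursor. The precursors of SREBPs, encoded by SREBF1 and SREBF2, are held in the endoplasmic reticulum by SCAP and INSIG proteins while sterols are plentiful, and are released by proteolysis when sterols fall. The released factors act on promoters together with partners such as NF-Y, with SREBF2 known mainly for sterol genes and SREBF1 for fatty acid genes.

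The library totals ran from 33800389 to 40031710 estimated counts, and a floor of 3 counts stood for 0.0749 to 0.0888 CPM (normalised read counts scaled to library size), counting error only. Replicates differed by more than sampling noise, with a chi-square per degree of freedom of 23.3 to 31.9 in 3 variants and 96.8 in NCI-H1581R, whose replicates stood furthest apart. Of 14 marker genes, the mesenchymal VIM was abundant in all variants, with means of 2852 to 6404 CPM. The epithelial marker EPCAM averaged 14.5 CPM in NCI-H1581 and 7.71 CPM in NCI-H1581R, and 0.456 and 0.370 CPM in NCI-H1703 and NCI-H1703R. CDH1, another defining epithelial marker, lay between 0.489 and 1.12 CPM on average. Markers also differed within lines. KRT18 averaged 64.9 CPM in NCI-H1703 and 2.68 CPM in NCI-H1703R, and SOX2 37.6 and 0.370 CPM, whereas SOX2 averaged 1.11 CPM in NCI-H1581 and 6.64 CPM in NCI-H1581R. TP63 averaged 6.03 CPM in NCI-H1581 and 29.5 CPM in NCI-H1581R, and NKX2-1 14.3 and 49.8 CPM. The levels of KRT8, KRT5, NAPSA and SFTPB, also among the 14, are not given here, so a change of lineage cannot be read from these values. The blood marker PTPRC had at most 15 counts and the endothelial marker PECAM1 at most 18 counts in any library. The fibroblast marker COL1A1 averaged 59.1 CPM in NCI-H1581 and 27.5 CPM in NCI-H1581R, and 0.976 CPM in NCI-H1703 and 24.1 CPM in NCI-H1703R. The part of these markers in the results below was not tested.

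Promoter sequence was taken from RefSeq (GRCh38.p14) for 27 of the 31 genes, 1 window per gene with 250 bases before and 50 after the start. Both strands were searched for a sterol regulatory element (TCACNCCAC), the NF-Y box (CCAAT, which reads ATTGG on the other strand) and an E-box (CACGTG, the same on both strands). In NSDHL the NF-Y box and its reverse shared bases. The NF-Y box occurred in 16 of 21 sterol branch promoters and in 2 of 6 fatty acid branch promoters (ACLY and SCD), against 35.7% of 27305 promoters. The sterol regulatory element occurred in SREBF2 alone among the 27, against 1.15% of all promoters. The E-box occurred in INSIG1, LSS, SC5D and SCAP, against 7.43% of all promoters. A match is a description of the letters and not a bound site, and other windows of the same genes were not searched.

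The bases before the start are shown for 5 genes on which the results below turn. They are SREBF2 for the regulators, INSIG1 for the difference between the sensitive lines, and MVD, EBP and ELOVL6. The change with resistance of MVD, EBP and ELOVL6 depended on the line. So did that of IDI1, whose bases are not shown and held no match. Capitals mark the matches. SREBF2 lies at chr22:41832855-41833104 (plus strand), with the sterol regulatory element at -133 to -125 and the NF-Y box at -106 to -102 from the start. INSIG1 lies at chr7:155297628-155297877 (plus strand), with the NF-Y box at -170 to -166 and the E-box at -55 to -50. MVD lies at chr16:88663092-88663341 (minus strand) with 3 NF-Y boxes, and EBP at chrX:48521558-48521807 (plus strand), also with 3. ELOVL6 lies at chr4:110198616-110198865 (minus strand) and held none of these letters.
SREBF2: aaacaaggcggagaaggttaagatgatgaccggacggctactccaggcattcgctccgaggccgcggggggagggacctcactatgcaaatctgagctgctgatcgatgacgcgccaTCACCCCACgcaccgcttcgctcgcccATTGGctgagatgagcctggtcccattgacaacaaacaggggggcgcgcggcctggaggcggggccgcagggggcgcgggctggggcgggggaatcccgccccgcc
INSIG1: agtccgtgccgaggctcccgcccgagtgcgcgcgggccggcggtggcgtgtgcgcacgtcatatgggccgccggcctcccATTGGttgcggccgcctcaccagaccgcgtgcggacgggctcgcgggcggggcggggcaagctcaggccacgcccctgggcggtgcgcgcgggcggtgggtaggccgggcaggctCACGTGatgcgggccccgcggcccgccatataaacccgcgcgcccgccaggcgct
MVD: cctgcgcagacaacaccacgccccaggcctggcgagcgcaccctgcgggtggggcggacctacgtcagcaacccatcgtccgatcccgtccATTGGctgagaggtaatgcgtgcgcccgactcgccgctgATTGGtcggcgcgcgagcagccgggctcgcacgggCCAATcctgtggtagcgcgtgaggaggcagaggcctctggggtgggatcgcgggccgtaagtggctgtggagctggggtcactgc
EBP: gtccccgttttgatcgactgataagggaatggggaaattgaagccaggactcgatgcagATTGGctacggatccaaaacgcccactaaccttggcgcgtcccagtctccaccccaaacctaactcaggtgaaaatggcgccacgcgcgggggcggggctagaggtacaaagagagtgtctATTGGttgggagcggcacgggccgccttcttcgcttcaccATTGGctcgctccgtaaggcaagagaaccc
ELOVL6: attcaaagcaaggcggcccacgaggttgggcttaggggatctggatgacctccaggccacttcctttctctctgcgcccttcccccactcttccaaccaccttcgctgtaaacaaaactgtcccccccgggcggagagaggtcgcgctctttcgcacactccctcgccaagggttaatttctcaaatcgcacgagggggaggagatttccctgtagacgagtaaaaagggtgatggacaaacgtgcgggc

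As TPM, a level per kilobase of the longest annotated transcript scaled to the library, SCD was the most abundant of the 31 genes in every variant, with 748 ± 27.4 TPM in NCI-H1581, 1011 ± 108 in NCI-H1581R, 901 ± 30.9 in NCI-H1703 and 1212 ± 12.1 in NCI-H1703R (SD, n = 2). SCD is the desaturase that makes monounsaturated fatty acids. FASN, the fatty acid synthase, was next in NCI-H1581 with 705 ± 19.5 TPM, and ACLY, which makes cytosolic acetyl-CoA, followed with 562 ± 18.9 TPM. In NCI-H1703 the neighbours ACLY (359 ± 21.5 TPM) and FASN (358 ± 20.1 TPM) did not differ beyond their SD. FDPS, the farnesyl diphosphate synthase, was the most abundant sterol gene in NCI-H1581 at 450 ± 12.5 TPM, close to DHCR7, the last reductase of the pathway, at 446 ± 19.9 TPM. This order depended on the transcript length used. With the median transcript length FASN ranked 1 in all 4 variants and SCD ranked 11, 7, 3 and 3 in the order above. ELOVL6, an elongase of saturated and monounsaturated fatty acids, ranked 30 of 31 in NCI-H1581 at 1.72 ± 0.267 TPM. NPC1L1, a sterol importer of intestine and liver, had 0 counts in 4 libraries and 2 to 8 in the others, and no fold change is given for it.

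**Figure D1:**
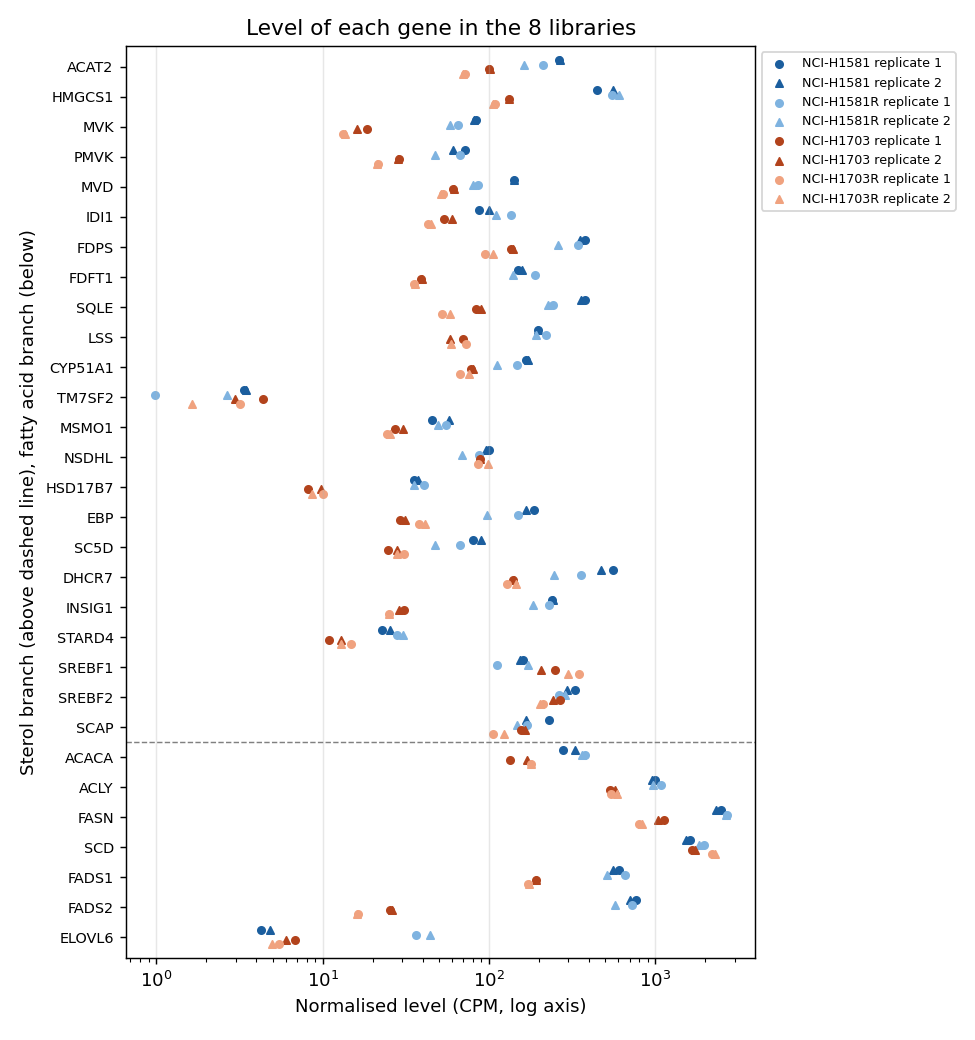
Normalised level in CPM (horizontal, log axis) of the 30 genes other than NPC1L1, 1 row per gene, with the sterol branch above the dashed line. Each point is 1 library, coloured by variant, with replicate 1 as a circle and replicate 2 as a triangle. Most NCI-H1703 and NCI-H1703R points lie to the left of those of NCI-H1581 and NCI-H1581R, whereas those of SREBF1 and SCD do not, and ELOVL6 stands apart in NCI-H1581R.

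In NCI-H1581R against NCI-H1581, ELOVL6 rose and 3 sterol genes, MVD, SQLE and DHCR7, fell, by the quasi-likelihood test of edgeR at a Benjamini-Hochberg adjusted p under 0.1 over 18203 genes. The remaining 27 of the 31 genes did not pass. Over all genes tested, 7.63% were called higher and 7.44% lower, so the share called among these genes (1 higher and 3 lower of 31) was not far from that of all genes. The median log2 fold change was -0.28 over the sterol branch, 0.16 over the fatty acid branch and 0.04 over all genes. The fold change was below 0 for 17 of 24 sterol genes, among them NPC1L1 with its few counts. It was above 0 for 6 of 7 fatty acid genes, among them FADS1 at 0.0147, which was -0.00985 with DESeq2. The shares of all genes above and below 0 are not given here.

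ELOVL6 stood at 4.24 and 4.79 CPM in the NCI-H1581 replicates and at 36.4 and 44.1 CPM in those of NCI-H1581R. Both resistant libraries were far above both sensitive ones. The log2 fold change was 3.16 (SE 0.23), an 8.93-fold rise (edgeR adjusted p = 0.000401). The other fatty acid genes lay close to their sensitive levels, with log2 fold changes from -0.17 (FADS2) to 0.30 (ACACA, the acetyl-CoA carboxylase), none of which passed.

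MVD, the mevalonate diphosphate decarboxylase, stood at 140 and 142 CPM in NCI-H1581 and at 86.4 and 80.2 CPM in NCI-H1581R. The log2 fold change was -0.75 (SE 0.16, edgeR adjusted p = 0.0297). The groups did not overlap, as was also so for ACAT2 and MVK, which did not pass. The share of such separation over all genes is not given here. SQLE, the squalene epoxidase, which catalyses the first oxygen-dependent step, stood at 375 and 355 CPM in the sensitive and at 244 and 225 CPM in the resistant libraries. Its log2 fold change was -0.63 (SE 0.16, edgeR adjusted p = 0.0627). DHCR7 stood at 553 and 471 CPM against 357 and 246 CPM. The NCI-H1581R replicates of DHCR7 lay further apart than those of MVD, and its log2 fold change was -0.75 (SE 0.23, edgeR adjusted p = 0.0947).

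Among the sterol genes that did not pass, ACAT2, which condenses acetyl-CoA, had a log2 fold change of -0.49 (SE 0.19, edgeR adjusted p = 0.171), and MVK, the mevalonate kinase, had -0.41 (SE 0.16, adjusted p = 0.170). SC5D and EBP, enzymes of the late sterol steps, had -0.55 (SE 0.21, adjusted p = 0.170) and -0.52 (SE 0.23, adjusted p = 0.228). IDI1, the isopentenyl diphosphate isomerase, had the largest positive value of the branch, 0.40 (SE 0.18, adjusted p = 0.245), with 86.7 and 99.9 CPM in the sensitive and 135 and 110 CPM in the resistant libraries. HMGCS1, FDFT1, LSS, MSMO1, HSD17B7 and STARD4 lay between 0.04 and 0.29, and PMVK, FDPS, CYP51A1, TM7SF2 and NSDHL between -0.89 and -0.20. The regulators SREBF1 (-0.13), SREBF2 (-0.17), SCAP (-0.31) and INSIG1 (-0.21) did not pass either. The SREBF1 level differed between the NCI-H1581R replicates, 112 and 172 CPM, by more than it did between the variants.

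ELOVL6 was called in NCI-H1581R with any 1 library left out. Without NCI-H1581 replicate 1, and likewise without replicate 2, MVD, SQLE and DHCR7 lost their calls, and fewer of all genes were called too. Without NCI-H1581R replicate 1, and likewise without its replicate 2, more of the 31 genes and more of all genes were called. With 1 library left out, the log2 fold change ran from 2.99 to 3.30 for ELOVL6 and from -0.80 to -0.72 for MVD. It ran from -0.68 to -0.59 for SQLE and from -1.04 to -0.53 for DHCR7. DESeq2 called 7, the same 4 genes and ACAT2, MVK and SC5D, the last 3 all lower. It called 1553 of 18203 genes higher and 1670 lower.

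**Figure D2:**
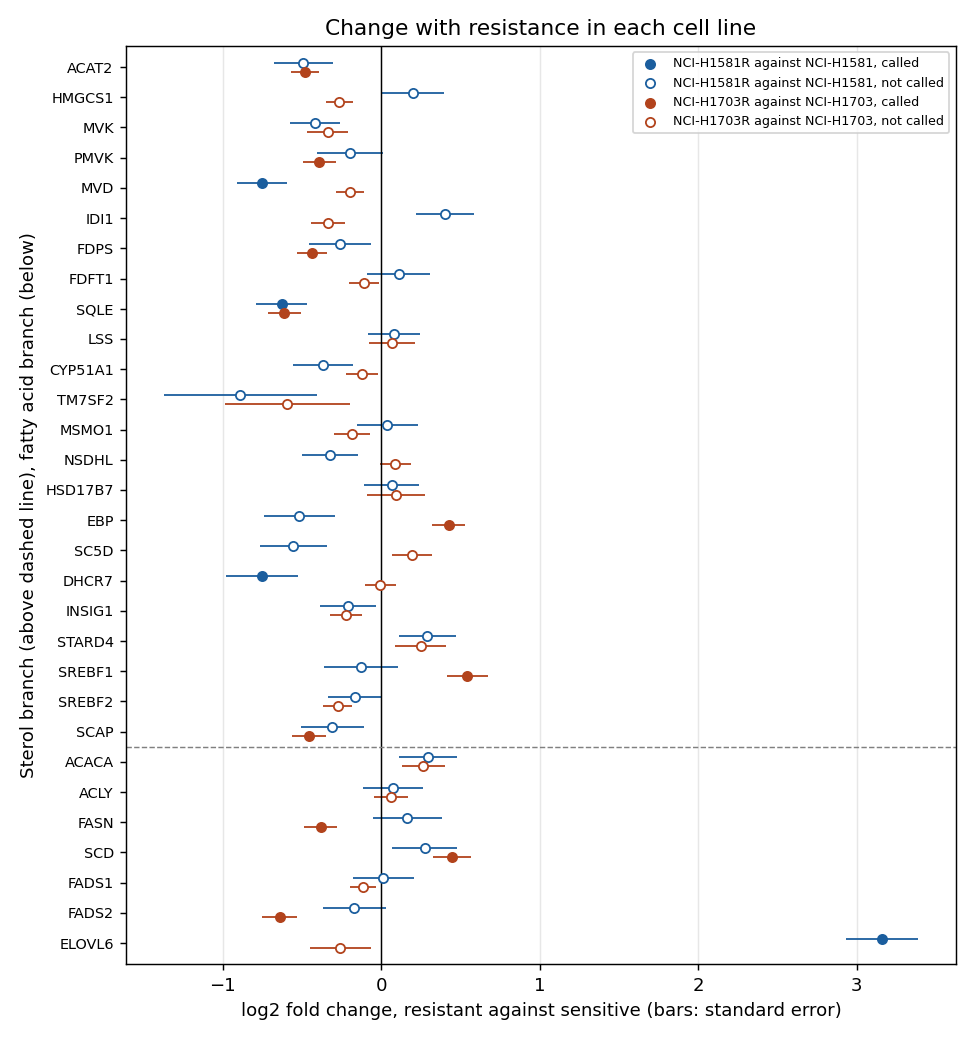
Log2 fold change of the resistant against the sensitive variant (horizontal, bars show the standard error of the edgeR fit) for 30 genes, NPC1L1 left out, in NCI-H1581 (blue) and NCI-H1703 (red). Filled points passed an adjusted p under 0.1, and the sterol branch is above the dashed line. ELOVL6 in NCI-H1581R stands apart at 3.16, and the other values lie between -0.89 and 0.54.

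In NCI-H1703R against NCI-H1703, 10 of the 31 genes passed, 3 higher and 7 lower, with 7.06% of all genes called higher and 7.67% lower. EBP and SREBF1 rose in the sterol branch, and ACAT2, PMVK, FDPS, SQLE and SCAP fell. In the fatty acid branch SCD rose, and FASN and FADS2 fell. The changes were small, and none of the 10 reached a 2-fold difference. The median log2 fold change was -0.19 over the sterol branch, -0.12 over the fatty acid branch and 0.00 over all genes.

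SQLE stood at 83.1 and 89.1 CPM in NCI-H1703 and at 52.0 and 58.5 CPM in NCI-H1703R, with no overlap. The log2 fold change was -0.61 (SE 0.10, edgeR adjusted p = 0.0236). ACAT2 stood at 99.6 and 101 CPM against 71.6 and 69.3 CPM, a log2 fold change of -0.48 (SE 0.09, edgeR adjusted p = 0.0296). In the annotation, 454 bases of ACAT2 exons (17.2%) overlap TCP1 on the opposite strand, and whether the libraries kept the strand is not given, so some reads could belong to either gene. FDPS fell from 136 and 140 CPM to 94.1 and 106 CPM (log2 fold change -0.44, SE 0.10, edgeR adjusted p = 0.0470). PMVK, the phosphomevalonate kinase, fell from 28.8 and 28.4 to 21.5 and 21.3 CPM (-0.39, SE 0.10, adjusted p = 0.0782). Thus a synthase, a condensing enzyme, a kinase and an epoxidase of the sterol branch were lower in both NCI-H1703R libraries than in either NCI-H1703 library. The same held for HMGCS1, MVK, MVD, IDI1, FDFT1, CYP51A1, MSMO1, INSIG1 and SREBF2, which did not pass in this fit. Such separation therefore does not set the called genes apart, and its share over all genes is not given here.

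EBP, the sterol isomerase, moved the other way, from 29.3 and 31.3 CPM to 38.2 and 41.5 CPM (log2 fold change 0.43, SE 0.10, edgeR adjusted p = 0.0654). Of its exon bases, 36.4% overlap another annotated protein-coding gene on the same strand. SREBF1 stood at 249 and 206 CPM in NCI-H1703 and at 348 and 300 CPM in NCI-H1703R (0.54, SE 0.13, adjusted p = 0.0605). Of the exon bases of SREBF1, 6.75% overlap RAI1 on the opposite strand. SCAP, the escort protein of SREBP precursors, fell from 155 and 164 CPM to 105 and 122 CPM (-0.46, SE 0.10, adjusted p = 0.0545). For all 3 the groups did not overlap, as was also so for SC5D and STARD4, which did not pass. SREBF2 (-0.27, SE 0.09, adjusted p = 0.143) and INSIG1 (-0.22, SE 0.10, adjusted p = 0.252) did not pass. The other 14 sterol genes, NPC1L1 left out, ran from -0.59 (TM7SF2) to 0.25 (STARD4) and did not pass. TM7SF2 had 37 to 162 counts a library, and with 1 library left out its value ran from -1.14 to -0.20 in NCI-H1703R and from -1.81 to -0.35 in NCI-H1581R.

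SCD rose from 1649 and 1723 CPM to 2202 and 2293 CPM (log2 fold change 0.45, SE 0.12, edgeR adjusted p = 0.0806). FASN fell from 1127 and 1036 CPM to 798 and 827 CPM (-0.38, SE 0.10, adjusted p = 0.0820). FADS2, a desaturase of polyunsaturated fatty acids, fell from 25.5 and 26 CPM to 16.2 and 16.1 CPM (-0.64, SE 0.11, adjusted p = 0.0252). FADS2 shares 490 exon bases with FADS1 on the opposite strand, and FADS1 itself had -0.12 (SE 0.08, adjusted p = 0.470). The 3 called genes of the fatty acid branch therefore did not move in 1 direction. ELOVL6 stood at 6.79 and 5.98 CPM in NCI-H1703 and at 5.47 and 4.99 CPM in NCI-H1703R, and its log2 fold change of -0.26 (SE 0.19, adjusted p = 0.484) did not pass. ACACA (0.27) and ACLY (0.06) did not pass either.

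With the replicate number as a block, 17 of the 31 genes passed in NCI-H1703R, 4 higher and 13 lower, beside 18.2% of all genes called higher and 16.7% lower in that fit. The block added ACACA among the higher genes (edgeR adjusted p = 0.0440) and HMGCS1 (0.0127), MVK (0.0572), MVD (0.0721), IDI1 (0.0102), INSIG1 (0.0928) and SREBF2 (0.00734) among the lower ones. In the NCI-H1581 comparison the same 4 genes were called with and without the block. DESeq2 called 13 of the 31 genes in NCI-H1703R, those of the main fit and also HMGCS1, IDI1 and SREBF2 as lower. The DESeq2 adjusted p was 0.0340 for HMGCS1, 0.0671 for IDI1 and 0.0264 for SREBF2. It called 1429 of 18203 genes higher and 1608 lower. With any 1 library left out of the NCI-H1703 comparison, calls were lost among these genes and over all genes alike. The genes called in the main fit kept the sign of their log2 fold change. It ran from -0.70 to -0.52 for SQLE, -0.51 to -0.45 for ACAT2 and -0.67 to -0.61 for FADS2. For SREBF1 it ran from 0.43 to 0.67.

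**Figure D3:**
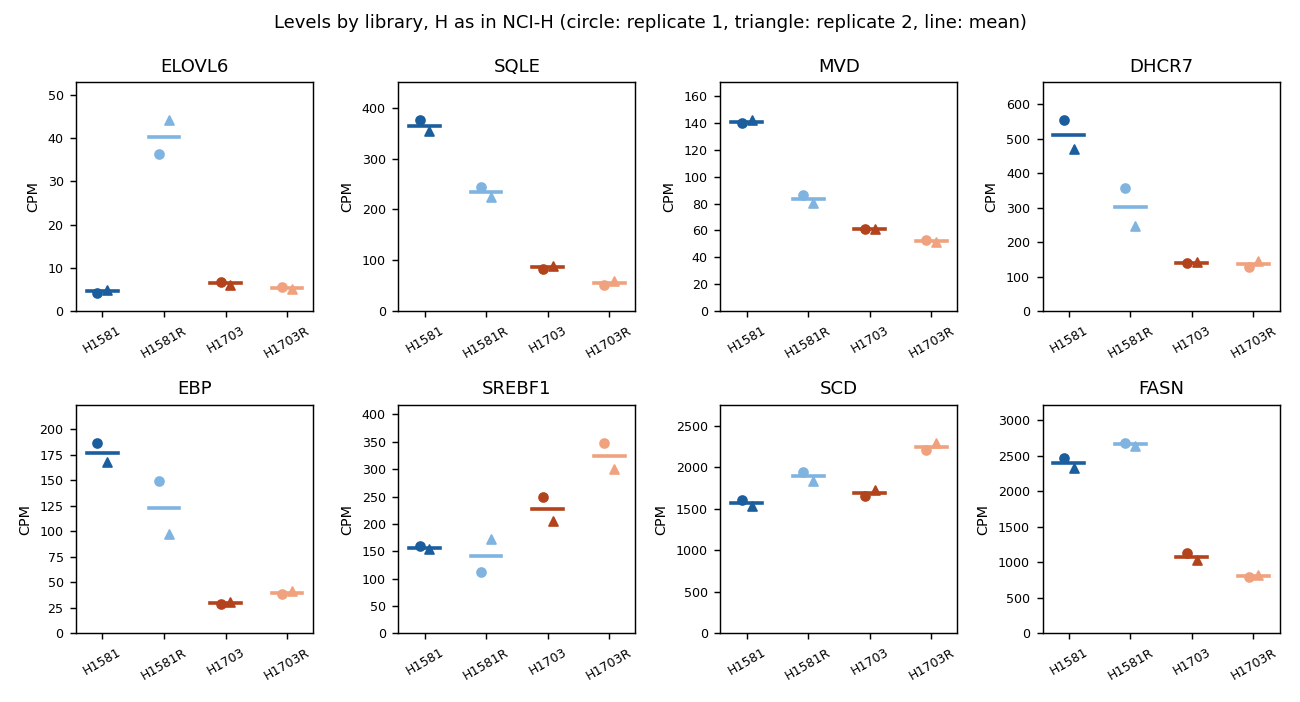
Normalised level in CPM (vertical, from 0, a scale of its own in each panel) of 8 genes in the 4 variants. Circles and triangles are replicates 1 and 2, and lines are their means. SQLE is lower in the resistant variant of both lines, ELOVL6 is high in NCI-H1581R, and SREBF1 and SCD are highest in NCI-H1703R.

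Of the 31 genes, SQLE was called lower in both lines and no other gene was called in both, while 0.95% of all genes were called lower in both. With the replicate block MVD was also called lower in both (edgeR adjusted p = 0.0285 and 0.0721), and with DESeq2 so was ACAT2 (adjusted p = 0.0629 and 0.000108). SQLE lies on chromosome 8. The authors report fewer DNA copies over large parts of that chromosome in NCI-H1581R, but more copies over a portion of it in NCI-H1703R. They also report a lower copy number of MYC in both. Whether copy number has a part in the lower SQLE level was not tested. When the difference between the lines was tested in a fit of all 8 libraries (the log2 fold change in NCI-H1703 minus that in NCI-H1581), 4 of the 31 genes passed, 2 higher and 2 lower, beside 6.93% of all genes higher and 8.47% lower. The difference was -3.44 (SE 0.27, edgeR adjusted p = 0.000171) for ELOVL6, -0.76 (SE 0.20, adjusted p = 0.0501) for IDI1, 0.92 (SE 0.27, adjusted p = 0.0739) for EBP and 0.53 (SE 0.15, adjusted p = 0.0632) for MVD. IDI1 and EBP had values of opposite sign in the lines, whereas MVD had negative values in both. That of MVD in NCI-H1703R was the smaller and did not pass in the fit without the block (-0.20, SE 0.09, edgeR adjusted p = 0.2455). For SQLE the difference was -0.001 (SE 0.17) and did not pass. FASN, called in NCI-H1703R and not in NCI-H1581R, had a difference of -0.57 (SE 0.20, adjusted p = 0.123), and SREBF1 had 0.65 (SE 0.29, adjusted p = 0.223), so neither passed in this fit. DESeq2 called the difference for both, with an adjusted p of 0.00155 for FASN and 0.0863 for SREBF1. The median difference was -0.01 over the sterol branch, -0.15 over the fatty acid branch and -0.09 over all genes.

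With the replicate block within each line, 7 of the 31 genes passed in this test, 3 higher and 4 lower, beside 8.73% and 10.1% of all genes. DHCR7 was added among the higher (adjusted p = 0.0421) and HMGCS1 (0.0914) and FASN (0.0950) among the lower. ELOVL6 passed with any 1 of the 8 libraries left out. IDI1, EBP and MVD lost their calls without NCI-H1581 replicate 1, or without any 1 of the 4 NCI-H1703 and NCI-H1703R libraries. Without NCI-H1581 replicate 2, IDI1 kept its call. In all these fits fewer of all genes were called too. Without NCI-H1581R replicate 1, and likewise without its replicate 2, more of the 31 genes and of all genes were called. With 1 library left out, the difference ran from -3.57 to -3.29 for ELOVL6 and from -0.90 to -0.61 for IDI1. It ran from 0.65 to 1.26 for EBP and from 0.48 to 0.59 for MVD.

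More of these genes were called between the sensitive lines than in either resistant variant. In NCI-H1703 against NCI-H1581, 24 of the 31 genes were lower and 1, SREBF1, was higher, beside 30.4% of all genes called lower and 32.5% higher. The lower genes were 19 of 24 in the sterol branch and 5 of 7 in the fatty acid branch. The median log2 fold change was -1.30 over the sterol branch and -1.01 over the fatty acid branch, against 0.04 over all genes. Leaving out any 1 of the 4 libraries left 24 to 26 of the 31 genes called.

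INSIG1, which retains SCAP in the endoplasmic reticulum and is itself an SREBP target, stood at 238 and 241 CPM in NCI-H1581 and at 31 and 28.9 CPM in NCI-H1703. The log2 fold change was -3.0 (SE 0.10), 8.0-fold lower (edgeR adjusted p = 4.69e-07). EBP stood at 187 and 168 CPM against 29.3 and 31.3 CPM (-2.55, SE 0.11, adjusted p = 1.47e-06). MVK stood at 84.0 and 81.2 CPM against 18.6 and 16.2 CPM (-2.25, SE 0.12, adjusted p = 3.53e-06). SQLE (-2.08), HSD17B7 (-2.03), FDFT1 (-1.96), HMGCS1 (-1.94) and DHCR7 (-1.87) followed, each passing. The smallest of the called decreases in the branch were those of SREBF2 (-0.28, SE 0.10, adjusted p = 0.0375), IDI1 (-0.72, SE 0.13, adjusted p = 0.00208) and MSMO1 (-0.83, SE 0.16, adjusted p = 0.00301). NSDHL, a decarboxylating dehydrogenase of the late pathway, stood at 100 and 96.2 CPM against 88.3 and 88.4 CPM and did not pass (-0.15, SE 0.09, adjusted p = 0.201). ACAT2, PMVK, MVD, FDPS, LSS, CYP51A1, SC5D and STARD4 were called lower with values from -1.69 to -1.01, while SCAP (-0.31) and TM7SF2 (0.11) did not pass.

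FADS2 differed most of the 31 genes, with 766 and 702 CPM in NCI-H1581 and 25.5 and 26 CPM in NCI-H1703. The log2 fold change was -4.83 (SE 0.11), 28.5-fold lower (edgeR adjusted p = 9.59e-08). FADS1, its neighbour on chromosome 11, was lower by less (-1.60, SE 0.09, adjusted p = 5.84e-06). FASN (-1.15, SE 0.09), ACACA (-1.01, SE 0.15) and ACLY (-0.82, SE 0.10) were also lower. SCD stood at 1611 and 1537 CPM against 1649 and 1723 CPM, and its log2 fold change of 0.10 (SE 0.09, adjusted p = 0.392) did not pass. ELOVL6 had 0.49 (SE 0.23, adjusted p = 0.102). SREBF1 stood at 159 and 154 CPM against 249 and 206 CPM (0.54, SE 0.11, adjusted p = 0.00391), and was thus higher in the line in which most of the other genes were lower.

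**Figure D4:**
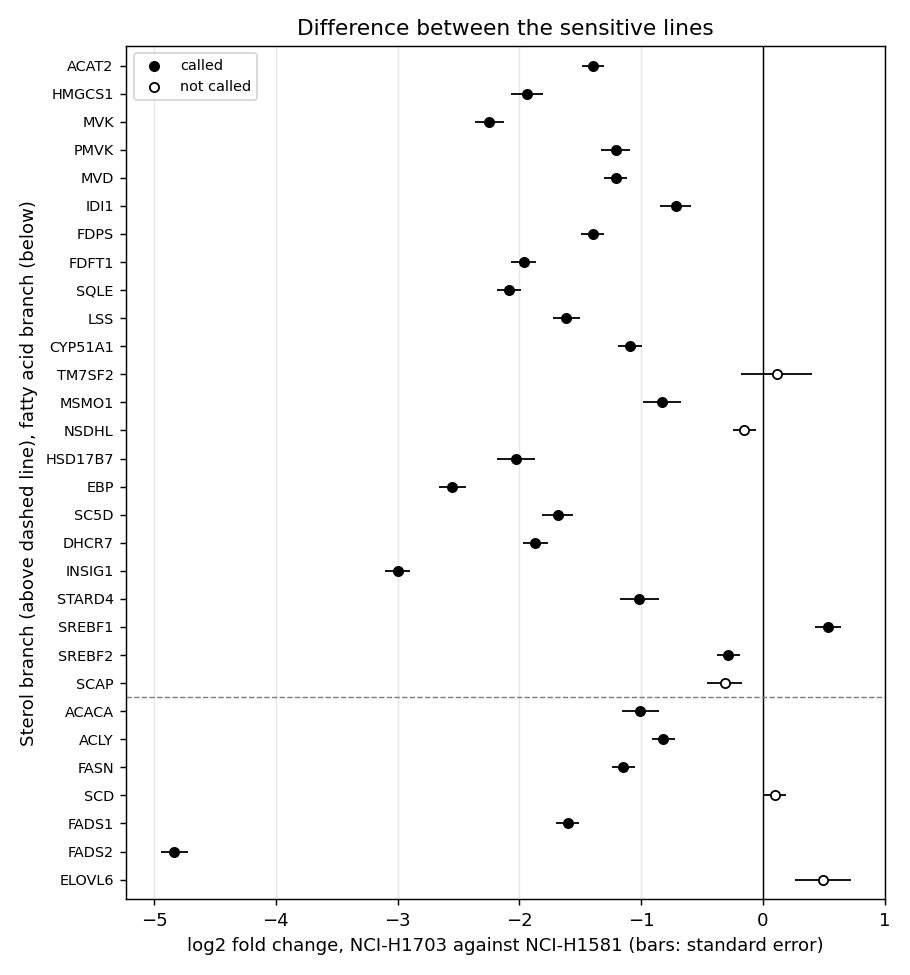
Log2 fold change of NCI-H1703 against NCI-H1581, the sensitive variants (horizontal, bars show the standard error of the edgeR fit), for 30 genes, NPC1L1 left out. Filled points passed an adjusted p under 0.1. Most points lie below 0 in both branches, with FADS2 lowest at -4.83 and SREBF1 the 1 called gene above 0.

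Summed over its genes, the sterol branch stood at 4337 and 4248 CPM in NCI-H1581, 3821 and 3354 CPM in NCI-H1581R, 1835 and 1792 CPM in NCI-H1703, and 1656 and 1654 CPM in NCI-H1703R. The fatty acid branch stood at 6727 and 6403 CPM in NCI-H1581, 7499 and 6928 CPM in NCI-H1581R, 3664 and 3724 CPM in NCI-H1703, and 3915 and 4079 CPM in NCI-H1703R. In each line the resistant libraries lay below the sensitive ones for the sterol sum and above them for the fatty acid sum. The sums were not tested. The fatty acid sum is carried by FASN and SCD, and in NCI-H1703R the rise of SCD stood beside the fall of FASN.

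**Figure D5:**
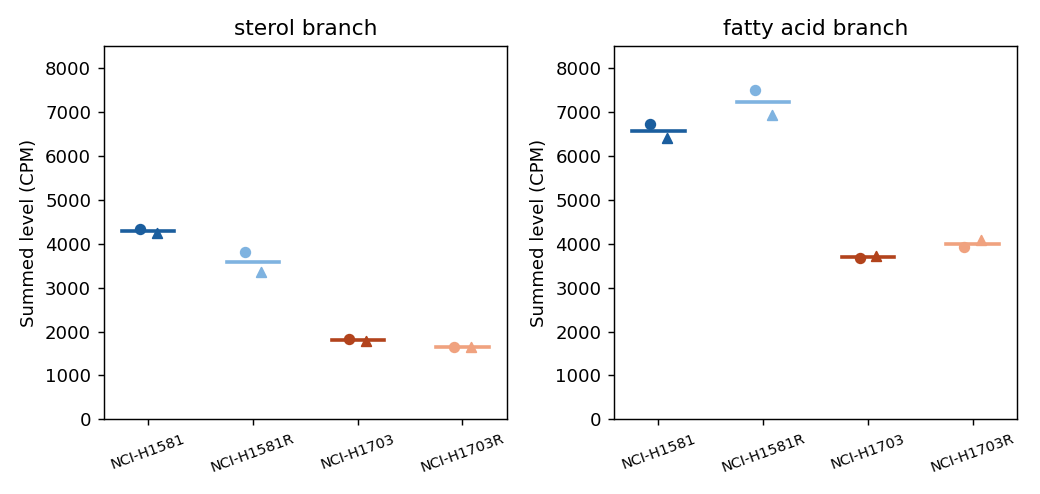
Summed level in CPM (vertical, from 0) of the sterol branch (left) and the fatty acid branch (right) in each variant. Circles and triangles are replicates 1 and 2, and lines are their means. In each line the resistant points lie below the sensitive points on the left and above them on the right.

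Genes of 4 neighbouring pathways were read beside these in the same fits. Of 8 genes that process SREBPs or degrade sterol enzymes, ERLIN2 fell in NCI-H1581R (log2 fold change -0.90, SE 0.18, edgeR adjusted p = 0.0253) and MBTPS2, the intramembrane protease that releases SREBPs, rose in NCI-H1703R (0.73, SE 0.10, adjusted p = 0.0146). The medians of these 8 genes were -0.31 in NCI-H1581R and -0.00 in NCI-H1703R. Of 8 prenyl branch genes, RABGGTB rose in NCI-H1581R (0.72, SE 0.21, adjusted p = 0.0933) and RABGGTA, the other subunit of the same prenyltransferase, rose in NCI-H1703R (0.48, SE 0.11, adjusted p = 0.0550), with medians of -0.01 and 0.13. In each of these lists 1 of 8 genes was called in each line, which was not far from the share of all genes. Of all genes, 7.63% were called higher and 7.44% lower in NCI-H1581R, and 7.06% and 7.67% in NCI-H1703R.

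Of 12 genes of sterol trafficking, storage and efflux, 2 rose and 2 fell in NCI-H1581R, and 4 rose and 2 fell in NCI-H1703R, with medians of -0.17 and 0.19. The shares of all genes were 7.63% higher and 7.44% lower in NCI-H1581R, and 7.06% and 7.67% in NCI-H1703R. LIPA, the lysosomal acid lipase that frees cholesterol from its esters, stood at 237 and 247 CPM in NCI-H1581 and 143 and 104 CPM in NCI-H1581R. Its log2 fold change was -0.96 (SE 0.20, edgeR adjusted p = 0.0299). In NCI-H1703 it stood at 67.9 and 69.1 CPM and in NCI-H1703R at 115 and 119 CPM (0.81, SE 0.09, adjusted p = 0.00533). The difference between the lines was 1.75 (SE 0.22, adjusted p = 0.00182). NPC2, which carries cholesterol out of the lysosome, also fell in NCI-H1581R (-0.71, SE 0.22, adjusted p = 0.0998) and rose in NCI-H1703R (0.56, SE 0.09, adjusted p = 0.0171), and the lines differed by 1.25 (SE 0.24, adjusted p = 0.0141). NPC1, the lysosomal membrane partner of NPC2, rose in NCI-H1703R (0.37, SE 0.09, adjusted p = 0.0729) and had 0.34 (SE 0.16, adjusted p = 0.272) in NCI-H1581R, where it did not pass; NPC1 was added after its values were seen. LIPA and NPC2 thus moved in opposite directions in the lines, and NPC1 had positive values in both.

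ABCA1, the cholesterol efflux transporter, went from 2 and 0 counts in NCI-H1581 to 34 and 58 counts in the resistant libraries. Against a floor of 3 counts per library this was at least 14.5-fold higher (edgeR adjusted p = 0.0201). In NCI-H1703R it fell (-2.02, SE 0.30, adjusted p = 0.0153), from 6.11 and 5.65 CPM to 1.74 and 1.08 CPM. MYLIP, which targets lipoprotein receptors for degradation, rose in NCI-H1581R (1.38, SE 0.39, adjusted p = 0.0814), and NR1H2, a sterol-sensing nuclear receptor, fell in NCI-H1703R (-0.72, SE 0.12, adjusted p = 0.0204).

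Of 21 further fatty acid and glycerolipid genes, 2 rose and 2 fell in NCI-H1581R, and 3 rose and 4 fell in NCI-H1703R, with medians of -0.14 and -0.12. The counts in NCI-H1581R were near the shares over all genes, 7.63% higher and 7.44% lower, and those in NCI-H1703R stood beside 7.06% and 7.67%. DGAT2, which makes triglyceride, stood at 39.3 and 31.7 CPM in NCI-H1581 and 89.1 and 69.7 CPM in NCI-H1581R (1.17, SE 0.20, edgeR adjusted p = 0.0142). It fell in NCI-H1703R from 67.2 and 61.5 CPM to 29.4 and 30.8 CPM (-1.06, SE 0.09, adjusted p = 0.00325). The lines differed by -2.26 (SE 0.23, adjusted p = 0.000627). SCD5, a second stearoyl-CoA desaturase, fell from 5.19 and 3.97 CPM to 0.186 and 0.381 CPM in NCI-H1581R (-3.97, SE 0.51, adjusted p = 0.00485), in the variant in which ELOVL6 rose. ME1, which supplies NADPH, rose there (1.14, SE 0.20, adjusted p = 0.0155), and TECR, a reductase of fatty acid elongation, fell (-0.91, SE 0.19, adjusted p = 0.0301). In NCI-H1703R, MID1IP1, an activator of acetyl-CoA carboxylase, rose (1.08, SE 0.09, adjusted p = 0.00312), as did LPIN1 (0.78, SE 0.16, adjusted p = 0.0402), while DGAT1 fell (-0.54, SE 0.11, adjusted p = 0.0413).

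With the block, the counts in NCI-H1703R became 2 higher and 3 lower of the 8 processing genes, 6 and 2 of the 12 trafficking genes, 4 and 1 of the 8 prenyl genes, and 4 and 5 of the 21 fatty acid and glycerolipid genes. In the same fit 18.2% of all genes were called higher and 16.7% lower. In NCI-H1581R the fatty acid and glycerolipid genes called higher became 4. Of the 10 genes of these lists named for NCI-H1581R, 2 were called without NCI-H1581 replicate 1 (ABCA1 and SCD5), 1 without NCI-H1581 replicate 2 (SCD5), and 9 without either NCI-H1581R replicate. Of the 10 named for NCI-H1703R, DGAT2 and MID1IP1 were the 2 called without NCI-H1703 replicate 1 and also without replicate 2, with 9 called without NCI-H1703R replicate 1 and 8 without NCI-H1703R replicate 2.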

How the data were processed

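Total RNA of 4 cell line variants was measured by RNA-seq, with 2 replicates each. The authors trimmed reads with cutadapt and quantified transcripts with Salmon on GRCh38 (tool versions not given in the sources used here). They deposited a table of estimated counts (expected counts), 1 row per gene, which were rounded here. The 31 genes and the further gene lists were chosen with earlier results of these data known. A gene was kept if its 8 libraries summed to 10 or more counts (18203 of 37441). Each comparison was fitted with edgeR 4.0.16 in R 4.3.3 (quasi-likelihood test, TMM normalisation, bias-adjusted deviances, two-sided), with Benjamini-Hochberg adjustment over all genes kept and a threshold of 0.1, which follows the study's choice of separate fits and filter. Each line was fitted alone (4 libraries, 2 residual degrees of freedom), and the difference between the lines was an interaction over 8 libraries. The SE was the log2 fold change divided by the square root of the F statistic. DESeq2 1.42.0, RLE scaling, other filters, a replicate block, a single fit and leave-one-out fits were alternatives. Of these, DESeq2 was the method of the study. Scripts were tested on simulated data.

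All 31 genes are named, and from each further list up to 2 called genes per direction in each resistance comparison, taken by size of change. CPM values used TMM factors over the 8 libraries. The same seeding procedure was repeated for each replicate, and over 9828 genes whose mean reached 10 CPM, deviations of same-numbered replicates correlated with Pearson's r of 0.156 between NCI-H1581 and NCI-H1581R and 0.237 between NCI-H1703 and NCI-H1703R. Across the lines r ran from -0.317 to 0.0327. The estimated counts share reads among overlapping genes and pseudogenes, of which HSD17B7P2 had up to 73 counts and FDPSP8 up to 12.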

Additional observations from a re-analysis of the deposited data

Results flagged for a closer look

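For 4 of the 31 genes the change with resistance differed between the lines in the test of the difference itself (log2 fold change in NCI-H1703 minus that in NCI-H1581, edgeR quasi-likelihood test over 8 libraries). The value was -3.44 for ELOVL6, -0.759 for IDI1, 0.921 for EBP and 0.533 for MVD. ELOVL6 was higher in 2 of 2 NCI-H1581R libraries than in either NCI-H1581 library and lower in 2 of 2 NCI-H1703R libraries than in either NCI-H1703 library. The lower level in NCI-H1703R did not pass (log2 fold change -0.26, SE 0.19, edgeR adjusted p = 0.484), so a fall there is not established.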

How the results depend on the processing

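The comparison of the sensitive lines and the call of ELOVL6 in NCI-H1581R depended least on the processing, while the counts in the resistance comparisons depended on single libraries. With 2 replicates a variant, leaving 1 out leaves a lone library that is assumed to vary like the others, and the cause of each move below was not tested. In NCI-H1581R 2743 genes and 4 of the 31 were called. These became 1793 and 2 at an adjusted p under 0.05 and 4539 and 9 in a single fit of 8 libraries, and 7 of the 31 with DESeq2. Leaving out 1 replicate gave 1128 to 5185 genes and 1 to 14 of the 31. In NCI-H1703R 2683 genes and 10 of the 31 were called. These became 1640 and 4 at an adjusted p under 0.05, 6356 and 17 with the replicate block, and 1730 and 3 in a single fit. Leaving out 1 replicate gave 274 to 1686 genes and 0 to 6 of the 31. For the difference between the lines, 2803 genes and 4 of the 31 were called. Of the 31, 1 was called at an adjusted p under 0.05, 8 with DESeq2 and 7 with the replicate block, and leaving out 1 replicate gave 1571 to 4141 genes and 1 to 10 of the 31. The block changed no other call among the 31 genes than those given. The fatty acid branch median ran from -1.11 to -0.83 between the sensitive lines and from -0.31 to -0.0265 for the difference between the lines when 1 replicate was left out.

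Values near 0 changed sign. With 1 replicate left out, log2 fold changes in NCI-H1581R ran from -0.46 to 0.0138 for PMVK, -0.12 to 0.30 for FDFT1, -0.0200 to 0.16 for LSS, -0.13 to 0.22 for MSMO1, -0.0297 to 0.15 for HSD17B7, -0.49 to 0.16 for SREBF1, -0.00111 to 0.14 for ACLY and -0.16 to 0.16 for FADS1. FADS1 was also -0.00985 with DESeq2 and -0.00985 with RLE scaling. In NCI-H1703R they ran from -0.0910 to 0.21 for LSS, -0.00736 to 0.19 for NSDHL, -0.0536 to 0.25 for HSD17B7, -0.11 to 0.0932 for DHCR7 and -0.0114 to 0.14 for ACLY. Between the sensitive lines TM7SF2 ran from -0.18 to 0.33. The SQLE difference between the lines was 0.0384 with at least 10 counts in every library, 0.0444 with DESeq2, 0.0370 with no filter, 0.0445 with RLE scaling and -0.0884 to 0.0806 with 1 replicate left out. Legacy quasi-dispersions, an alternative added after seeing the data, called 4 of the 31 genes in NCI-H1581R, 9 in NCI-H1703R, 25 between the sensitive lines and 4 for the difference between the lines.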
